A study of Homo sapiens with 12 samples.

Results

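Of the 54675 probe sets on these arrays, 257 carried the symbol of a microRNA gene in the platform's gene symbol field, and 174 of them reached a log2 expression of 4 or more on at least 3 of the 12 arrays. These 174 probe sets are described here. They were taken by a rule on the annotation: a symbol made of MIR and a digit, with no HG ending, stood alone or among other symbols. The arrays measure long transcripts, so the values are levels of the primary transcript or of the host gene in which a microRNA is annotated, and not levels of the mature microRNA.

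The cells were CCRF-CEM-C7H2, an established, glucocorticoid-sensitive line of T-cell acute lymphoblastic leukemia and a subclone of CCRF-CEM. They were treated with 100 nM dexamethasone, a synthetic glucocorticoid, or with 0.1% ethanol, the carrier. RNA was taken after 6 h and after 24 h, and hybridized to Affymetrix HG-U133 Plus 2.0 arrays, 3 in each of the 4 groups. Both treatments of a time came from the same experiments, numbered 0, 1 and 3 at 6 h and 1, 2 and 3 at 24 h. By its title and design, the study asked which microRNA precursors are regulated by the glucocorticoid. All groups share 1 clonal line, so the spread between arrays is that between cultures and holds no donor-to-donor variation.

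A microRNA gene is copied as part of a longer RNA, the primary transcript, from which the nuclear enzyme Drosha with DGCR8 cuts a hairpin. Dicer trims the hairpin to the mature strand that an Argonaute protein carries to its targets, which are read mainly through the seed, the stretch of bases just after the first. Some microRNAs lie in a noncoding RNA made for them, such as MIR17HG, MIR155HG or MIR22HG, and many others lie inside the span of a protein-coding gene. In T-cell leukemia the miR-17 cluster, which includes miR-19, is known to promote growth, and glucocorticoids kill sensitive lymphoblasts through the glucocorticoid receptor.

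The 174 probe sets held 111 microRNA symbols, and a further 59 symbols occurred on probe sets below the filter alone. By the other symbols in the field, 143 probe sets had a protein-coding host, 23 a noncoding host and 8 no host symbol. A single symbol stood on 6 probe sets, so on the other 168 the microRNA shares its probe set with a host or with further microRNAs. Probe sets with an s or x in the name, which may read several transcripts, made up 54 and 38 of the 174.

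Places relative to hosts were not worked out for 16 of the 111 microRNA genes, MIR22 among them, for lack of a listed hairpin position. The other 95 had one and were set against the spans in the RefSeq gene table of GRCh38.p14. Of these, 70 lay inside a host named in the same field and on its strand, and 4 lay inside it on the opposite strand. A further 5 lay inside a host without a listed strand, 8 did not lie wholly inside a named host, and 8 had no host symbol in the field. MIR424 (MIR503HG) and MIR6125 (USP15), of those not wholly inside, had a gap of 0 bases to the host span. The opposite-strand ones were MIR1282 in SERF2, MIR4271 in C3orf62, MIR4656 in AP5Z1 and MIR4746 in UBXN6, and a host level does not stand for a transcript of the other strand. MIR3654 is annotated with EEF1G but lies at chr7:133034860-133034915, inside the span of CHCHD3. The table gives spans only, so introns and exons were not told apart.

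A selection of the annotated microRNAs is shown with the seed (bases 2 to 8) in capitals. The mature sequences are RefSeq's. First come 6 mature strands of the cluster in MIR17HG, whose hairpins lie on the plus strand between chr13:91350605-91350688 (MIR17) and chr13:91351314-91351391 (MIR92A1).
hsa-miR-17-5p: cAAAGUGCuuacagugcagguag
hsa-miR-20a-5p: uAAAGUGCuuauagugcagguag
hsa-miR-18a-5p: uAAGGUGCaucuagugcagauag
hsa-miR-19a-3p: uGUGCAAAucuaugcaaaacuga
hsa-miR-19b-3p: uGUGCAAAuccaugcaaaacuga
hsa-miR-92a-3p: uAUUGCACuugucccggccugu
miR-17-5p and miR-20a-5p have the same seed, and so have miR-19a-3p and miR-19b-3p.

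A second set shows seeds shared between neighbours or between transcripts of different chromosomes. MIR29B2 (chr1:207802443-207802523) and MIR29C (chr1:207801852-207801939) are annotated on 1 probe set and share a seed, while MIR15A (chr13:50049119-50049201) in DLEU2 shares its seed with MIR424 (chrX:134546614-134546711) annotated with MIR503HG.
hsa-miR-29b-3p: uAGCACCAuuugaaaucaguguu
hsa-miR-29c-3p: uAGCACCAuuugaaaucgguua
hsa-miR-15a-5p: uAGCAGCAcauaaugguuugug
hsa-miR-424-5p: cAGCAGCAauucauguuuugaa

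The third set belongs to further transcripts described below, namely those of MIR22HG (MIR22), VMP1 (MIR21), PER1 (MIR6883), MCAM (MIR6756), MXD4 (MIR4800), DKC1 (MIR664B) and SNHG20 (MIR6516), and the probe set of MIR3916, whose response turned round between the times.
hsa-miR-22-3p: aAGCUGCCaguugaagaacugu
hsa-miR-21-5p: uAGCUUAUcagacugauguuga
hsa-miR-6883-3p: uUCCCUAUcucacucuccucag
hsa-miR-6756-3p: uCCCCUUCcucccugcccag
hsa-miR-4800-3p: cAUCCGUCcgucuguccac
hsa-miR-664b-3p: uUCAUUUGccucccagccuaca
hsa-miR-6516-5p: uUUGCAGUaacaggugugagca
hsa-miR-3916: aAGAGGAAgaaauggcugguucucag

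Each contrast below is dexamethasone minus ethanol on the log2 scale, and a change is a Benjamini-Hochberg adjusted p under 0.05 from limma over 23265 tested probe sets. The medians of the 12 arrays lay between 3.01 and 3.12, and 41.3 to 42.1% of probe sets reached log2 4. Of the known glucocorticoid targets, FKBP5, NR3C1 and BCL2L11 were higher with dexamethasone by 1.82 to 2.57 at 6 h and by 1.95 to 3.61 at 24 h. TSC22D3, whose ethanol means lay below log2 4, the level taken as background, was higher by at least 7.49 and 8.71 when measured from it. Of 11 T-lymphoblast markers all 11 were detected, and the summed log2 level of the list was between 108 and 111 on every array. The sum lets opposite changes cancel. At 24 h 5 of the 11 were called higher, CD7 by 0.66 among them, and 5 lower, with NOTCH1 at -1.67 and LMO2 at -1.39. None of 4 myeloid markers and not the 1 erythroid marker on the array passed the filter. Of the B-cell and stromal markers, 2 of 4 each passed, and CD79A was higher by 1.55 at 24 h. In RNA from whole cultures, fewer cells with a transcript and less of it per cell cannot be told apart.

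By the scan codes in the labels, the 24 h arrays formed 1 batch, while the 6 h arrays formed a batch per treatment. Treatment and batch therefore cannot be told apart at 6 h, nor in the difference between the times. The poly-A spike controls were higher on the dexamethasone arrays, by 0.47 at 6 h and 0.34 at 24 h, and the hybridization controls by 0.34 and 0.38. Scaling to the spikes lowers every difference by those amounts, and counts on that spike scale are given beside the others. The 18S probe sets were lower by 2.27 with dexamethasone at 6 h and higher by 0.28 at 24 h. The part of the batch and of the 18S signal in the 6 h results was not tested.

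At 24 h, 98 of the 174 probe sets changed (56.3%), against 47.3% of all tested probe sets. Rises made up 47 (27%, against 22.8% of all) and falls 51 (29.3%, against 24.5%). These shares stood a little above those of the whole array, and that gap was not tested. Probe sets of the same host were counted separately in them. The medians were 0.0045 for the 174 and -0.0072 for all. Changes of at least 2-fold numbered 12 up (6.90%, against 6.72% of all) and 15 down (8.62%, against 5.31%). Of the rises, 2 (MIR22HG and a dim MCAM probe set, both also among the 12) passed the filter only through the 24 h dexamethasone arrays, so they could be called only as rises and the size of their difference is not known. On the spike scale 17 rises were called (9.77%, against 9.57% of all) and 79 falls (45.4%, against 43.3%). All 51 falls and 17 of the 47 rises kept their call on it, and 8 of the rises had a negative value.

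At 6 h, 6 probe sets changed (3.45%, against 6.20% of all): 2 rose (1.15%, against 2.66%) and 4 fell (2.30%, against 3.54%). At an unadjusted p under 0.05 there were 35 (20.1%, against 20.3% of all). When blocked by experiment number the count was 31 (17.8%, against 13.1% of all). On the spike scale 1 rise (0.575%, against 1.18%) and 109 falls (62.6%, against 65.0%) were called at 6 h.

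**Figure D1:**
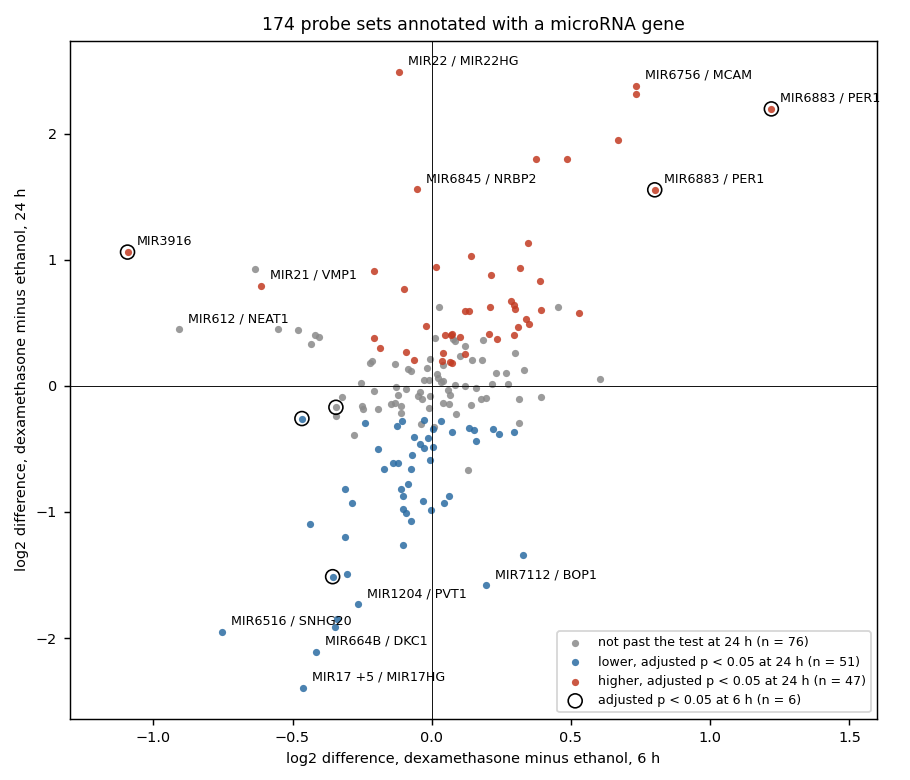
Each point is 1 of the 174 probe sets, with its log2 difference between dexamethasone and ethanol at 6 h on the x axis and at 24 h on the y axis, coloured by the call at 24 h and ringed where it was called at 6 h. The points spread more widely at 24 h than at 6 h (-1.09 to 1.22), the height of MIR22 is a fitted value against ethanol arrays below log2 4 and gives no size, MIR3916 lies low at 6 h and high at 24 h, and 8 of the 47 red points would have a negative value on the spike scale.

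The largest rise with both groups above log2 4 at 24 h was in MCAM, a cell adhesion molecule of the immunoglobulin family annotated with MIR6756, which had 4 probe sets. The first had 9.88, 9.65 and 9.66 with dexamethasone at 24 h, against 7.50, 7.50 and 7.05 with ethanol, a rise of 2.38 ± 0.34 (adjusted p = 0.000184). A dim one had 6.25, 4.94 and 4.84 with dexamethasone, against 3.11, 3.01 and 2.98 with ethanol, so that only the dexamethasone arrays of 24 h reached log2 4 and the difference measured from there was at least 1.345. The third had 10.31, 10.32 and 10.22 with dexamethasone, against 8.62, 8.44 and 7.95 with ethanol, and rose by 1.95 ± 0.32. In these 3 the dexamethasone arrays lay above every ethanol array. A probe set of MCAM alone, without a microRNA symbol, rose by 2.19. The remaining one with MIR6756 went the other way and fell by 0.49 ± 0.08 (adjusted p = 0.000651). It had the highest signal of the 4, up to 12.20 on an array. Like the dim one, it has an x in its name. The brighter ones of these differed at 6 h by 0.73 and 0.67 without passing the test (adjusted p = 0.256 and 0.268), and when blocked by experiment both passed (adjusted p = 0.0100 and 0.0152).

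MIR22HG, the noncoding host of miR-22, had log2 values of 5.29, 4.27 and 6.02 on the dexamethasone arrays of 24 h, against 2.57, 2.37 and 3.18 on the ethanol arrays. All ethanol arrays and the 6 h dexamethasone arrays (2.54 to 2.56) lay below log2 4, and the 24 h dexamethasone arrays lay above it. Measured from log2 4 the difference was at least 1.20, and no size is given beyond that bound.

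PER1, a repressor of the circadian clock and annotated with MIR6883 on its own strand, was higher at both times on both of its probe sets. On the brighter the values at 6 h were 7.64, 8.25 and 7.36 with dexamethasone, against 6.48, 6.46 and 6.64 with ethanol. At 24 h they were 8.93, 9.07 and 8.83 with dexamethasone, against 6.80, 6.81 and 6.63 with ethanol. The groups did not overlap at either time, and the differences were 1.22 at 6 h (adjusted p = 0.00282) and 2.20 ± 0.18 at 24 h (adjusted p = 3.55e-06). The dimmer had 5.99, 6.11 and 5.96 with dexamethasone at 6 h, against 5.11, 5.52 and 5.04 with ethanol, and rose by 0.80 (adjusted p = 0.00345). It had 6.76, 6.57 and 6.82 with dexamethasone at 24 h, against 5.12, 5.27 and 5.10 with ethanol, and rose by 1.55 ± 0.12 (adjusted p = 2.74e-06). On the spike scale its 6 h value was 0.33 and missed the test (adjusted p = 0.0641), as it did with scaling to the hybridization controls (0.46, adjusted p = 0.166). In a fit of the 6 h arrays alone neither 6 h call was made (adjusted p = 0.0572 for the brighter and 0.0505 for the dimmer). The 24 h response was larger than the 6 h response on both, by 0.98 and 0.75 (adjusted p = 0.0193 and 0.0105).

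MXD4, a MAX-binding repressor with MIR4800, rose by 1.80 on both of its probe sets. The brighter had 9.73, 9.53 and 10.01 with dexamethasone at 24 h, against 7.91, 7.84 and 8.13 with ethanol (adjusted p = 1.86e-05). The dimmer had 5.07, 5.51 and 6.31 with dexamethasone, against 3.75, 3.70 and 4.04 with ethanol, so that its ethanol arrays lay near background (adjusted p = 0.000829). The 6 h difference of the brighter was 0.37 (adjusted p = 0.295, and 0.0155 when blocked by experiment).

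NRBP2, a pseudokinase with MIR6845, had 5.95, 6.47 and 6.64 with dexamethasone at 24 h, against 4.89, 4.73 and 4.76 with ethanol, and rose by 1.56 ± 0.18 (adjusted p = 4.80e-05). Its 6 h difference was -0.05. UBA7, the activating enzyme of the ubiquitin-like protein ISG15, is annotated with MIR5193 and rose on both probe sets, by 1.13 ± 0.30 and 0.87 ± 0.17 (adjusted p = 0.00904 and 0.00182). On the first the values were 6.82, 7.0 and 7.05 with dexamethasone, against 5.37, 5.95 and 6.16 with ethanol, with no overlap.

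Among the probe sets without a host symbol, that of MIR29C and MIR29B2, the pair with the seed AGCACCA shown above, had 8.90, 8.05 and 8.94 with dexamethasone at 24 h, against 7.64, 7.46 and 7.70 with ethanol. It rose by 1.03 ± 0.21 (adjusted p = 0.00223), with the lowest dexamethasone array above the highest ethanol array. Both microRNA genes lie inside the span of MIR29B2CHG in the RefSeq table. At 6 h its difference was 0.14 (adjusted p = 0.777).

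The probe set of MIR3916 changed at both times in opposite directions. At 6 h it had 4.39, 4.64 and 4.30 with dexamethasone, against 5.66, 5.34 and 5.61 with ethanol, and fell by 1.09 on the log2 scale (adjusted p = 0.00562). At 24 h it had 6.80, 6.07 and 6.55 with dexamethasone, against 5.32, 5.27 and 5.65 with ethanol, and rose by 1.06 ± 0.18 (adjusted p = 0.000671). The groups did not overlap at either time, the ethanol arrays averaged 5.54 at 6 h and 5.41 at 24 h, and the responses differed by 2.15 (adjusted p = 0.000257). No gene span of the RefSeq table held MIR3916 (chr1:247201967-247202060), so its host is not named.

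Smaller rises at 24 h covered several transcripts made for microRNAs. MIR9-2HG with MIR9-2 rose by 0.60 ± 0.10 and 0.59 ± 0.12 on its pair of probe sets (adjusted p = 0.000441 and 0.00191), and MIR600HG with MIR600 by 0.38 ± 0.11 (adjusted p = 0.0149). In DLEU2, the noncoding host of MIR15A, a probe set rose by 0.63 ± 0.16 (adjusted p = 0.00760), another was at 0.35 (adjusted p = 0.103), and the one that also carries the symbol DLEU2L fell by 0.27 ± 0.08 (adjusted p = 0.0134). The DLEU2 probe sets without a microRNA symbol were likewise split, with values from -0.50 to 0.53. On the spike scale these rises of MIR9-2HG, MIR600HG and DLEU2 were at 0.05 to 0.29 and none passed the test.

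VMP1, an autophagy protein whose span holds MIR21 at chr17:59841266-59841337, showed 1 rise and 1 flat probe set. On the first the values were 6.26, 5.75 and 6.01 with dexamethasone at 24 h, against 4.83, 5.32 and 5.50 with ethanol, a rise of 0.79 ± 0.19 (adjusted p = 0.00603, and 0.0513 on the spike scale). At 6 h the same probe set differed by -0.61 (adjusted p = 0.0933), and the responses differed by 1.40 (adjusted p = 0.00420). On the second the 24 h difference was -0.0002 ± 0.07. Which of the 2 reads the transcript that runs through MIR21 was not determined.

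PDCD4, an inhibitor of the translation helicase eIF4A, is annotated with MIR4680 on 4 probe sets, and all 4 rose, by 0.77 to 0.94 (adjusted p = 0.000276 to 0.00523). On the spike scale 3 of the 4 passed. Its 6 h differences were between -0.21 and 0.39, and no call was made at that time. A dim PDCD4 probe set without the microRNA symbol was also called higher, at a mean of 4.285 with dexamethasone and of 3.571, below log2 4, with ethanol. MAB21L1 with MIR548F5 rose by 0.93 ± 0.09 (adjusted p = 1.03e-05) and SLC26A6, an anion exchanger with MIR6824, by 0.67 ± 0.14 (adjusted p = 0.00257).

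Of the coding hosts, the following rose by less. GPR108 with MIR6791 was higher by 0.64, TMEM94 with MIR6785 by 0.60 and TMEM179B with MIR6748 by 0.41. Citron kinase, CIT, with MIR1178 rose on 1 of 2 probe sets (0.57), and the other had a value of 0.62 that missed the test (adjusted p = 0.0850). The 3 WASH probe sets with MIR6859-1 and MIR6859-2, which match the actin regulator WASHC1 and several pseudogenes of it, rose by 0.47 to 0.61. PILRB with MIR6840, an activating immune receptor, rose on both probe sets, by 0.37 and 0.41. Apart from GPR108, whose value there was 0.30, none of these was above 0.29 on the spike scale, and none passed there.

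Of the hosts with the microRNA on the opposite strand, 3 had a rise on 1 of 2 probe sets. AP5Z1 (MIR4656), an adaptor protein, rose by 0.40, UBXN6 (MIR4746), a cofactor of the p97 ATPase, by 0.49, and the C3orf62 probe set with MIR4271 by 0.48. The probe set shared by C3orf62 and the deubiquitinase USP4 was at 0.20 (adjusted p = 0.213). The variant histone H3.3 genes H3-3A and H3-3B, annotated with MIR4738, rose on 3 of 4 probe sets, by 0.27 to 0.38. The other of the 4 had a larger value, 0.63, that missed the test. MIR4738 itself lies outside both gene spans. None of these rises passed on the spike scale, where the values lay between -0.07 and 0.15.

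The smallest rises, up to 0.26, were those of EEF1G, DDX5, MZT2A with MZT2B, and MIR101-1. EEF1G, a subunit of the translation elongation factor complex, rose by 0.18 to 0.20 on 3 probe sets. The one of these with the highest signal had 14.58, 14.57 and 14.56 with dexamethasone, against 14.40, 14.41 and 14.35 with ethanol. DDX5, an RNA helicase that works with Drosha and carries MIR3064 and MIR5047, rose by 0.20 on the probe set with these symbols and stood at -0.53 on another (adjusted p = 0.0758). MZT2A and MZT2B (MIR4784), of the gamma-tubulin complex, rose by 0.25, and the probe set of MIR101-1 and MIR3671 by 0.26. All 6, and 2 of the H3-3 ones, had negative values on the spike scale, from -0.16 to -0.04. MIR101-1 lies inside JAK1 and MIR3654 inside CHCHD3, and the probe sets that stand for these genes, without a microRNA symbol, changed by 2.09 and -0.74.

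**Figure D2:**
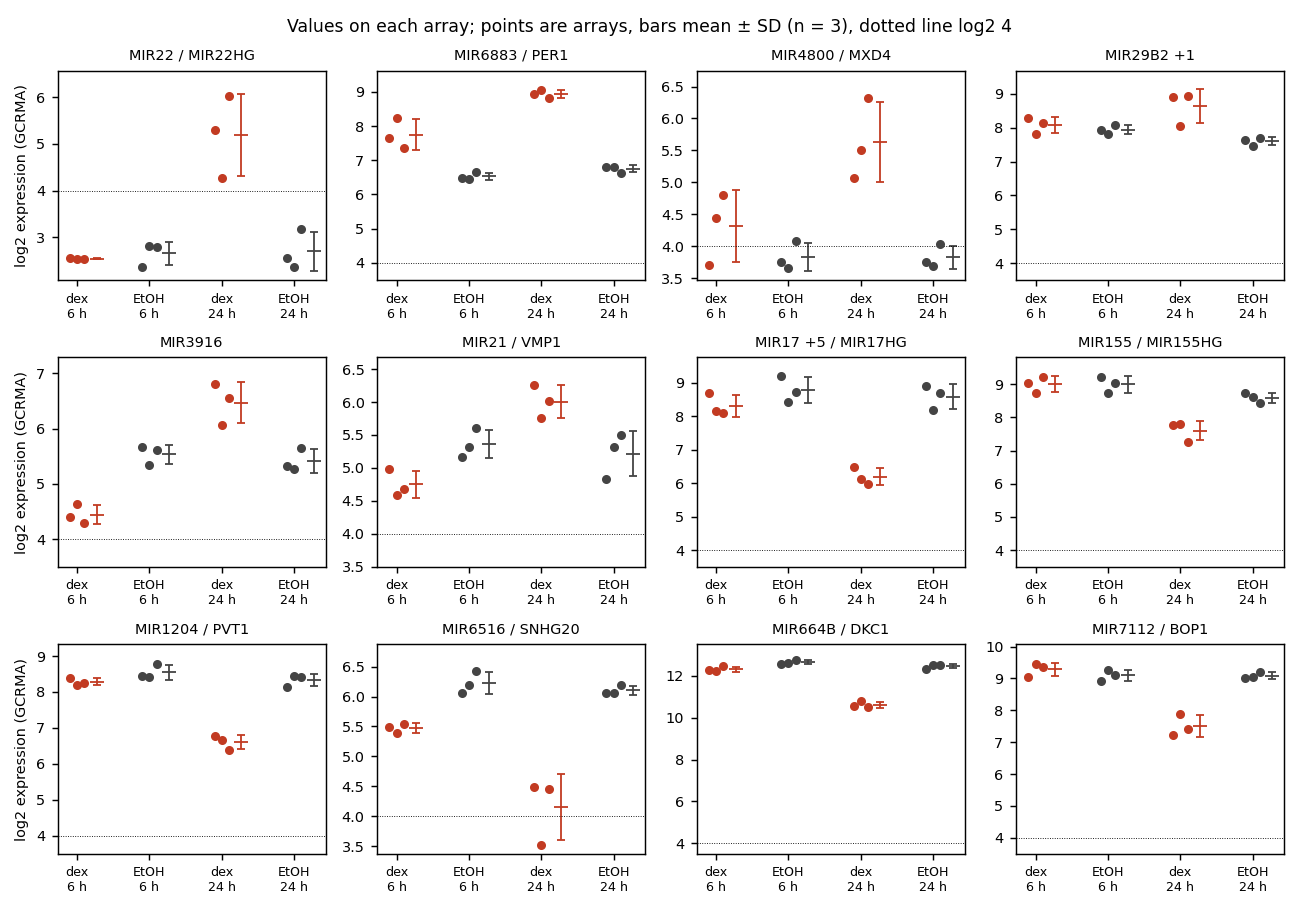
Each panel shows 1 probe set, with log2 expression on the y axis and the groups on the x axis (dex, dexamethasone; EtOH, ethanol). Points are single arrays, bars are the mean and SD of 3, and the dotted line marks log2 4. In the 24 h groups of every panel the dexamethasone arrays lie apart from the ethanol arrays, above them for MIR22, PER1, MXD4, MIR29B2, MIR3916 and VMP1 and below them for the other 6.

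The largest fall belonged to MIR17HG, the transcript of the miR-17 cluster (MIR17, MIR18A, MIR19A, MIR20A, MIR19B1 and MIR92A1). Its values at 24 h were 6.49, 6.12 and 5.98 with dexamethasone, against 8.89, 8.18 and 8.69 with ethanol, a 5.26-fold lower level (log2 -2.39 ± 0.25, adjusted p = 1.86e-05). At 6 h they were 8.69, 8.16 and 8.10 with dexamethasone, against 9.20, 8.41 and 8.73 with ethanol. The 6 h groups overlapped, although the dexamethasone array was the lower in each experiment, and the difference of -0.46 missed the test (adjusted p = 0.334). The change in response between the times, -1.93, passed it (adjusted p = 0.00292). All 6 mature strands shown above are annotated on this 1 probe set, so the cluster rests on a single measurement here.

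The other noncoding hosts with every probe set falling were MIR155HG, PVT1 and SNHG20. MIR155HG, the transcript of miR-155 and a marker of activated lymphocytes, had 7.76, 7.79 and 7.26 with dexamethasone at 24 h, against 8.72, 8.61 and 8.42 with ethanol, and fell by 0.98 ± 0.18 (adjusted p = 0.00102). PVT1, a long noncoding RNA with MIR1204, had 6.77, 6.67 and 6.39 with dexamethasone, against 8.15, 8.45 and 8.42 with ethanol, and fell by 1.73 ± 0.13 (adjusted p = 2.44e-06). SNHG20, a small nucleolar RNA host with MIR6516 and SCARNA16, had 4.49, 3.52 and 4.46 with dexamethasone, against 6.06, 6.06 and 6.20 with ethanol, and fell by 1.95 ± 0.22 (adjusted p = 3.04e-05). In none of these did the groups overlap, and the dexamethasone arrays of SNHG20 lay near log2 4. At 6 h the differences were -0.001 for MIR155HG, -0.27 for PVT1 and -0.75 for SNHG20, the last with adjusted p = 0.0676, or 0.0393 when blocked by experiment.

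Some hosts also carry small nucleolar or Cajal body RNAs, which guide the modification of other RNAs. Of the 10 probe sets with such a symbol beside the microRNA, which belong to 5 hosts with 3 of them to DKC1, 8 fell at 24 h (80.0%, against 24.5% of all) and 0 rose. The same 8 had a lower response at 24 h than at 6 h (80.0%, against 11.7% of all), and the median of the 10 was -1.18 at 24 h. Besides SNHG20 these were DKC1 (MIR664B), the pseudouridine synthase of box H/ACA particles, NOP56 (MIR1292), a core protein of box C/D particles, and TAF1D (MIR1304), a subunit of the RNA polymerase I selectivity factor. The other two belonged to EIF4A2 (MIR1248), a translation helicase, and were at -0.05 and 0.14 without passing the test.

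DKC1 fell on all 3 probe sets, by 2.11 ± 0.14, 1.92 ± 0.12 and 1.85 ± 0.10 (adjusted p = 1.64e-07 to 6.22e-07). On the brightest the values at 24 h were 10.55, 10.79 and 10.51 with dexamethasone, against 12.36, 12.52 and 12.53 with ethanol, a 3.61-fold lower level. On the others they were 9.83, 10.23 and 9.83, and 8.06, 8.66 and 8.26, with dexamethasone, against 11.78, 11.95 and 11.90, and 10.39, 10.50 and 10.43, with ethanol. None of the 3 showed an overlap. The 6 h values of the brightest were 12.27, 12.25 and 12.46 with dexamethasone, against 12.59, 12.64 and 12.77 with ethanol. At 6 h all 3 stood at -0.42 to -0.34 without passing the test (adjusted p = 0.0744 to 0.129), and all 3 passed when blocked by experiment (adjusted p = 0.0306 to 0.0379).

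NOP56 fell by 1.26 ± 0.12 and 1.10 ± 0.14 at 24 h (adjusted p = 8.08e-06 and 9.56e-05), with 12.36, 12.77 and 12.37 on the dexamethasone arrays of the first, against 13.70, 13.78 and 13.80 on the ethanol arrays. TAF1D fell by 0.78 and 0.66. BOP1, an assembly factor of the large ribosomal subunit with MIR7112, had 7.21, 7.89 and 7.41 with dexamethasone at 24 h, against 9.0, 9.06 and 9.20 with ethanol, and fell by 1.58 ± 0.17 (adjusted p = 2.29e-05). Its other probe set had 6.15, 7.02 and 6.34 with dexamethasone, against 7.79, 7.86 and 7.88 with ethanol, and fell by 1.34 ± 0.18 (adjusted p = 0.000106). At 6 h BOP1 was at 0.19 and 0.33 without passing the test, and the responses differed by -1.78 and -1.67.

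MIR1282 was annotated on 5 probe sets that disagreed. The pair that also carries the SERF2-C15ORF63 readthrough symbol fell at 24 h, with differences of -1.51 ± 0.09 and -1.496 ± 0.09 (adjusted p = 4.16e-07 and 4.76e-07). On the first of them the values were 9.40, 9.57 and 9.49 with dexamethasone, against 10.94, 11.02 and 11.04 with ethanol. On the second they were 9.43, 9.60 and 9.43 with dexamethasone, against 10.98, 11.03 and 10.94 with ethanol, so that neither overlapped. On the 3 probe sets with HYPK and SERF2 alone, 2 rose by 0.40 each (adjusted p = 0.000333 and 0.000432) and 1 was at 0.12, and on the spike scale the rises were at 0.07 and missed the test. A dim HYPK probe set without the microRNA symbol was called lower, at a mean of 3.662 with dexamethasone and of 4.179 with ethanol. HYPK is a cofactor of N-terminal acetylation and SERF2 a small protein linked to aggregation. MIR1282 lies on the strand opposite to SERF2.

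Further coding hosts fell by about 1 on the log2 scale. LRWD1 (MIR4467), a partner of the origin recognition complex, had 8.2, 8.22 and 8.06 with dexamethasone, against 9.32, 9.26 and 9.5 with ethanol (-1.20 ± 0.09, adjusted p = 2.18e-06). SNX8 (MIR6836), a sorting nexin, fell by 1.07. FADS1 (MIR1908), the delta-5 fatty acid desaturase, fell on all 3 probe sets, by 0.81 to 1.01. MARS1 (MIR6758), methionyl-tRNA synthetase, fell on 2 of 3, by 0.98 and 0.91, and the dimmest of its probe sets was at -0.67 (adjusted p = 0.0577).

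Falls of 0.59 to 0.93 were found for FAM89A (MIR1182), PDIA5 (MIR7110), a disulfide isomerase, UQCC2 (MIR3934), an assembly factor of respiratory complex III, and ST7 (MIR6132). In the same range were 1 of the 2 falling probe sets of UCK2 (MIR3658), the uridine-cytidine kinase, whose second fell by 0.44, both of NELFA (MIR943), of the negative elongation factor, and 1 of 2 of PFDN6 (MIR6834), a prefoldin subunit, whose second fell by 0.55. PISD (MIR7109), phosphatidylserine decarboxylase, fell by 0.49. MIR3682, a probe set without a host symbol, fell by 0.51 (adjusted p = 0.0379). Its hairpin lies inside the span of GPR75-ASB3.

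Several falls were small and shared by a host's probe sets. PTBP1 (MIR4745), a splicing repressor, fell on all 5, by 0.33 to 0.38, after 6 h values of 0.13 to 0.30, and all 5 differed between the times. A pair of PTBP1 probe sets without the microRNA symbol was at -0.26 (adjusted p = 0.0491) and -0.09 (adjusted p = 0.373). PTMA (MIR1244-1, MIR1244-2 and MIR1244-3), prothymosin alpha, together with its pseudogenes, fell on 3 probe sets by 0.40 to 0.46, and a probe set with MIR1244-3 alone fell by 0.28. SRSF2 (MIR636), a splicing factor, fell on 2 of 3, by 0.32 and 0.28. A single fall each was seen in RIC8A (MIR6743), a chaperone of G protein alpha subunits, by 0.36, in PURB (MIR4657) on 1 of 4, by 0.35, in ELOVL1 (MIR6734), a fatty acid elongase, on 1 of 2, by 0.30, and in VMA12 (MIR4723), an assembly factor of the proton pump, on 1 of 3, by 0.26. Of the PTMA probe sets, that with the highest signal had 14.68, 14.68 and 14.71 with dexamethasone at 24 h, against 15.13, 15.12 and 15.19 with ethanol, and the next had 14.19, 14.20 and 14.26 with dexamethasone, against 14.59, 14.63 and 14.65 with ethanol. Neither overlapped.

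**Figure D3:**
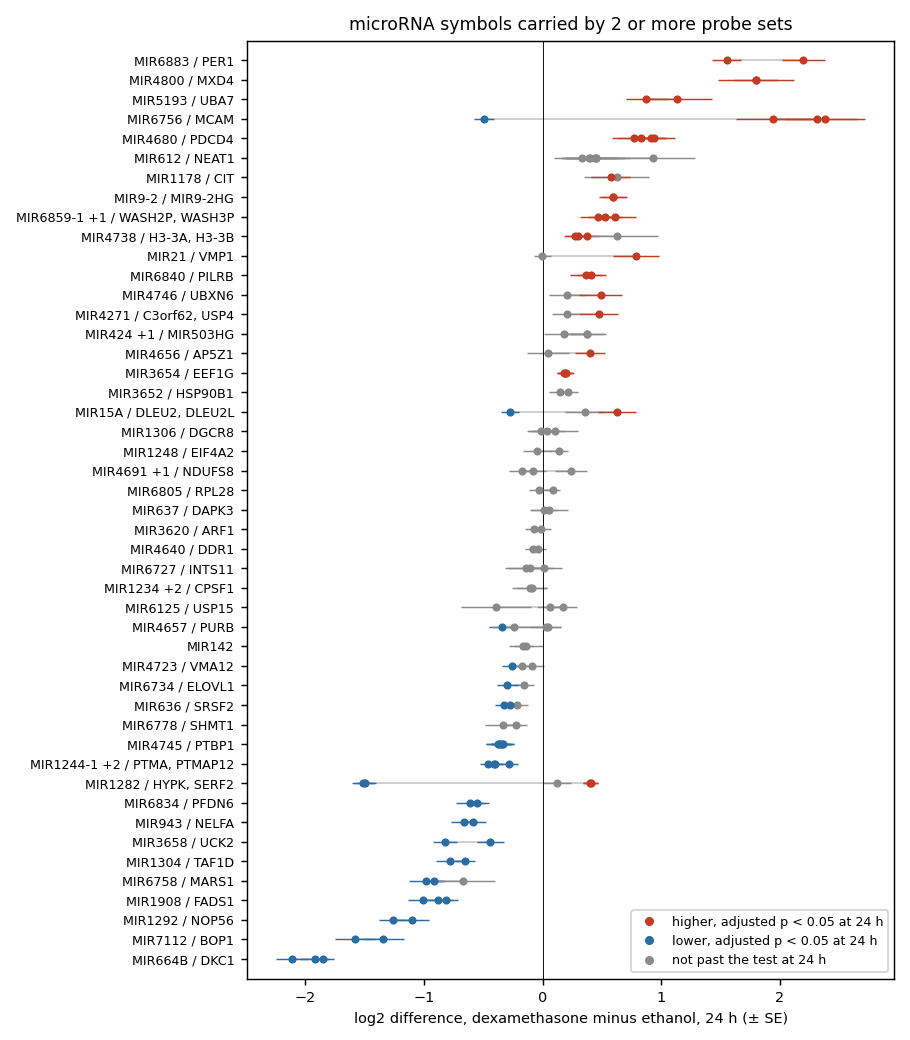
The 47 microRNAs or microRNA clusters annotated on 2 or more probe sets are rows, and each point is the 24 h difference of 1 probe set between dexamethasone and ethanol (log2, ± SE), coloured by its call. The points of 8 rows are all called higher and those of 10 rows all lower, and the rows of MIR1282, MIR15A and MIR6756 hold calls in both directions, 2 of them for MIR1282 and 1 for MIR15A missing the test as rises on the spike scale.

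The 174 probe sets fell into 93 microRNAs or clusters, 47 with several probe sets (128 in all) and 46 with 1. Of the 93, 27 had rises and no fall, 28 had falls and no rise, 3 had both, and 35 had no call at 24 h. Among the 46 with a single probe set, 13 rose and 13 fell.

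The 35 without a call include well-known microRNA transcripts. NEAT1, a nuclear long noncoding RNA annotated with MIR612, had 7 probe sets, none called. They stood at -0.91 to -0.40 at 6 h and at 0.33 to 0.93 at 24 h, and no value passed the test. The lowest of them at 24 h was at -0.01 when scaled to the spikes. In 2 of the 7, the second of them near background, the responses differed between the times (1.35 and 1.56, adjusted p = 0.0379 and 0.0463), and when blocked by experiment 2 passed at 6 h (-0.42 and -0.43, adjusted p = 0.0175 and 0.0433). MIR503HG, with MIR424 and MIR503, was at 0.18 to 0.38 (adjusted p = 0.0502 to 0.414).

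The MIR142 probe sets, from a microRNA of blood cells, were at -0.16 and -0.14, and that of MIR23AHG with MIR23A and MIR24-2 stood at background, with 4.31, 3.90 and 3.80 with dexamethasone at 24 h, against 4.0, 3.59 and 3.91 with ethanol. MIR4453HG (MIR4453) was at -0.14 and MIR302B, a microRNA of pluripotent cells, at 0.20. DGCR8 itself, the partner of Drosha, carries MIR1306 and was at -0.01 to 0.10 on 3 probe sets.

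Coding hosts without a call at 24 h on any of their several probe sets with the microRNA symbol were HSP90B1 (MIR3652), a chaperone of the endoplasmic reticulum, NDUFS8 (MIR4691 and MIR7113) of respiratory complex I, the ribosomal protein RPL28 (MIR6805), DAPK3 (MIR637), a death-associated kinase, and ARF1 (MIR3620), a small GTPase. The same held for DDR1 (MIR4640), a collagen receptor, INTS11 (MIR6727), the endonuclease of the Integrator complex, CPSF1 (MIR939, MIR1234 and MIR6849) of the cleavage and polyadenylation machinery, USP15 (MIR6125), a deubiquitinase, and SHMT1 (MIR6778), serine hydroxymethyltransferase. Without the symbol, a dim INTS11 probe set was called lower at 24 h, at a mean of 3.382 with dexamethasone and of 4.038 with ethanol, and an HSP90B1 probe set was lower at 6 h by 0.78 (adjusted p = 0.0132). RPL28, on the probe set with the highest mean signal of the 174, was at 15.60 to 15.62 with dexamethasone at 24 h, against 15.51 to 15.53 with ethanol. A USP15 probe set lay at background with 3.68, 3.40 and 3.66 with dexamethasone, against 4.14, 3.67 and 4.09 with ethanol.

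Uncalled coding hosts with 1 such probe set were QARS1 (MIR6890), TARS2 (MIR6878), HAUS4 (MIR4707), SYVN1 (MIR6751), TMBIM1 (MIR6513), PLEKHM1 with its pseudogene (MIR4315-1, MIR4315-2 and MIR6080), STMN1 (MIR3917), AMH (MIR4321), ZRANB2 (MIR186), PHLDB1 (MIR6716), DBNL (MIR6837), PSME2 (MIR7703), MED24 (MIR6884), CASC3 (MIR6866), SLC35B2 (MIR4647), RPL10A (MIR7111) and PLEKHJ1 (MIR6789). Their differences at 24 h lay between -0.31 and 0.37. QARS1 and TARS2 are aminoacyl-tRNA synthetases, like MARS1, and stood at 0.37 and -0.13. A PLEKHM1 probe set without the microRNA symbol rose by 0.61 (adjusted p = 0.00210). For all uncalled probe sets a missed threshold does not show equal levels.

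**Figure D4:**
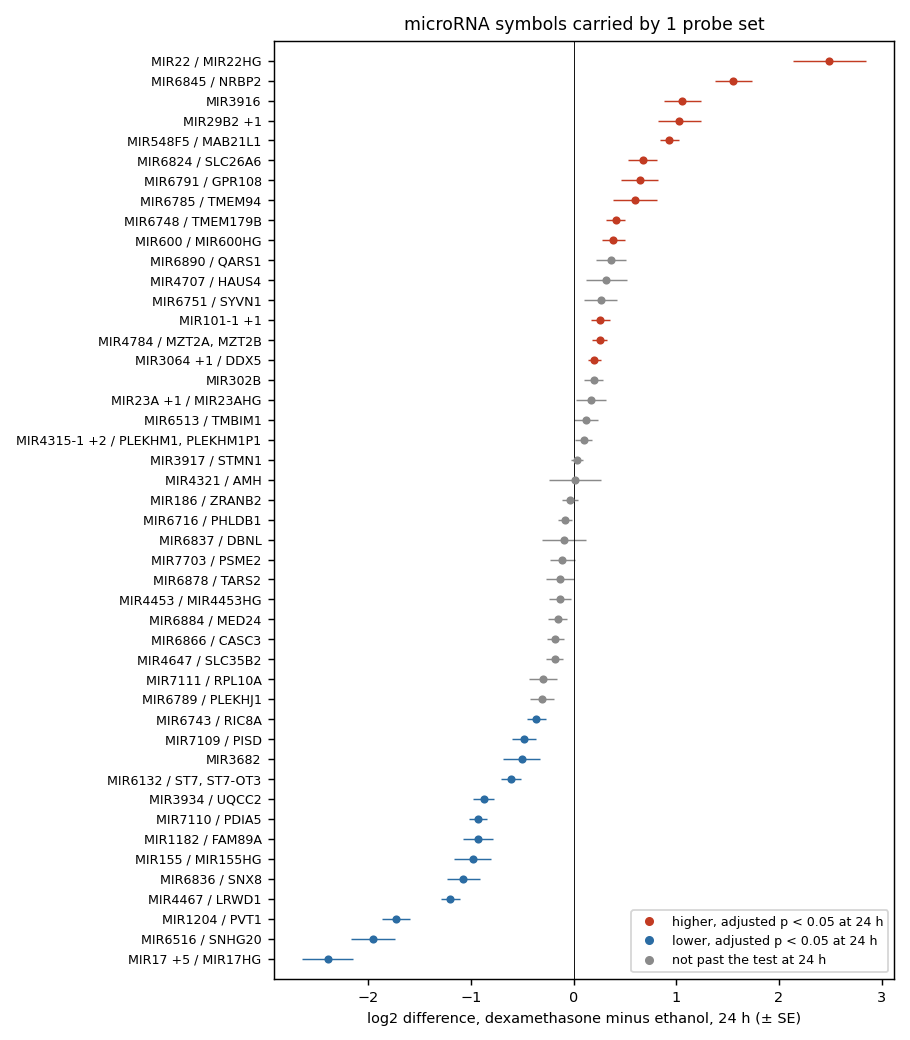
The 46 microRNAs or clusters annotated on 1 probe set are rows, and each point is the 24 h difference between dexamethasone and ethanol (log2, ± SE), coloured by its call. The MIR17 cluster lies lowest, the point of MIR22 is a fitted value against ethanol arrays below log2 4 and gives no size, and 3 of the 13 rises (MIR101-1, MIR4784 and MIR3064) would have a negative value on the spike scale.

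At 6 h the calls among the rises were both PER1 probe sets. The falls were MIR3916, a probe set with MIR1282 and the SERF2-C15ORF63 readthrough symbol, and a pair of VMA12 probe sets. On the first VMA12 probe set the values were 6.95, 7.01 and 7.04 with dexamethasone, against 7.50, 7.58 and 7.32 with ethanol, and it fell by 0.47 (adjusted p = 0.00939). On the second they were 7.16, 7.29 and 7.12 with dexamethasone, against 7.54, 7.54 and 7.52 with ethanol, and it fell by 0.34 (adjusted p = 0.0367). The third VMA12 probe set was at -0.32 (adjusted p = 0.0798, and 0.0470 when blocked by experiment). The readthrough probe set with MIR1282 had 10.59, 10.60 and 10.44 with dexamethasone, against 10.87, 11.07 and 10.76 with ethanol. It fell by 0.36 (adjusted p = 0.0472). The 3 probe sets with HYPK and SERF2 alone were at -0.07 to 0.07 at 6 h without a call. The readthrough call was lost without any 1 of 11 of the 12 arrays (adjusted p = 0.0542 to 0.145). The second VMA12 call was lost without any 1 of 7 (adjusted p = 0.0523 to 0.117). In a fit of the 6 h arrays alone MIR3916 kept its call, the other 5 lost theirs, and SNHG20 gained one (adjusted p = 0.0319).

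When blocked by experiment, 31 probe sets were called at 6 h, 18 higher (10.3%, against 5.56% of all) and 13 lower (7.47%, against 7.50%). Beyond those already named, the higher ones held both CIT probe sets (0.46 and 0.53), 1 of 2 of DAPK3 (0.60), both of CPSF1 (0.31 and 0.39), the 3 WASH probe sets (0.30 to 0.34), 1 of 2 of UBXN6 (0.35), MAB21L1 (0.32) and PLEKHM1 (0.27), and the lower ones a NOP56 probe set (-0.44). All arrays of 1 treatment at 6 h come from 1 batch, so these values carry the same limit as the others at that time.

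The 24 h response differed from the 6 h response in 64 of the 174 (36.8%, against 23.1% of all), higher in 21 (12.1%, against 11.4%) and lower in 43 (24.7%, against 11.7%). Of the 21, 2 (MIR22HG and the dim MCAM probe set) passed the filter only through the 24 h dexamethasone arrays. They could be called only as higher, so they add nothing to that share. The share with a lower response at 24 h stood above that of all tested probe sets, which was not tested, and the medians were 0.02 for the 174 and 0.01 for all. Probe sets of the same host were counted separately. The 43 include all 5 of PTBP1 and 8 from hosts that also carry small nucleolar or Cajal body RNAs. The split depends on the scaling: on the spike scale 21 were higher (12.1%, against 9.81% of all) and 19 lower (10.9%, against 4.37%), and with scaling to the hybridization controls 12 were higher (6.90%, against 4.53%) and 14 lower (8.05%, against 3.66%). The largest differences upward among probe sets above log2 4 in all groups were MIR3916 (2.15), MCAM (1.65) and NRBP2 (1.61), and downward MIR17HG (-1.93), both BOP1 probe sets (-1.78 and -1.67) and DKC1 (-1.69). Of the 6 probe sets called at 6 h, 2 were called higher and 2 lower at both times, 1 was lower at 6 h and not called at 24 h, and MIR3916 was called in opposite directions.

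Of the probe sets called at 24 h, 26 lost their call when some single array was left out, with adjusted p between 0.0511 and 0.168 at most. They were small rises or falls, such as those of EEF1G, H3-3, PTBP1, PILRB, UBXN6, TMEM94, MIR101-1 and MIR3682, and the array whose absence mattered most was the dexamethasone array of experiment 3 for 10 of them. None of the 24 calls with the largest fitted changes at 24 h lost its call this way. For MIR22HG and the dim MCAM probe set this is no support. Both passed the filter only through the 24 h dexamethasone arrays, and the filter was not applied anew when an array was left out.

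The proteins that make and carry microRNAs were looked for as 22 genes, each by its brightest probe set with that symbol alone. Such a probe set passed the filter for 19 of them. DGCR8, whose tested probe sets above carry MIR1306 as well, is therefore not among the 19. DDX5 is counted by its probe set without a microRNA symbol (-0.53, no call), and not by the one that rose. At 24 h 3 rose (15.8%, against 22.8% of all tested probe sets) and 6 fell (31.6%, against 24.5%). AGO4, an Argonaute, rose by 1.26, TNRC6B, a silencing partner of Argonautes, by 1.09 (0.63 at 6 h) and DDX17, a helicase of the Drosha complex, by 0.44. XPO5, the nuclear exporter of the hairpin precursor, fell by 1.26 (0.36 at 6 h), PRKRA and TARBP2, partners of Dicer, by 0.77 and 0.62, KHSRP by 0.67, AGO2 by 0.45 and RAN by 0.39. Drosha was at -0.07 and Dicer at -0.03, without passing the test. The series' title names mirtrons, microRNAs made from short introns by splicing, and of 10 known ones looked for none was annotated on a probe set of the table.

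Below the filter, 83 probe sets carried microRNA symbols, and their highest values on any array were between 1.4998 and 4.75. They were not tested. Among them were MIR29A with MIR29B1, MIR34A, MIR146A, MIR145, MIR195 with MIR497, MIR10A, MIR196B, MIR205, MIR224 and MIR137, and further probe sets of PVT1, PER1, NEAT1, MXD4 and VMP1. The nearest to the filter were those of MIR4800 with MXD4, on 2 arrays at log2 4 (up to 4.75), and of MIR6831 with APBB3, on 1 array (up to 4.51), while the tested ones of MIR22HG, of the dim MCAM probe set and of MIR23AHG passed on 3 arrays.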

How the data were processed

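RNA of 12 cultures of 1 cell line was measured on Affymetrix HG-U133 Plus 2.0 arrays. The authors deposited log2 expression per probe set, computed in R 2.6 with the GCRMA method according to the submitters' processing notes. This method removes background by probe sequence and equalizes quantiles between arrays, so a shift of all transcripts would be removed. Tests left out 62 control probe sets. Probe sets at log2 4 or more on 3 or more arrays (23265) were fitted together with limma 3.58.1 in R 4.3.3, with 1 mean per group, 8 residual degrees of freedom and Benjamini-Hochberg adjustment over all of them. Errors with ± are limma's SE (n = 3 arrays per group), and the code was tested on simulated data. The number of arrays limits the precision.

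Arrays with the same experiment number pair the treatments: with group means removed, they correlated at r = 0.417, 0.627 and 0.609 at 6 h and 0.286, 0.238 and 0.424 at 24 h. Those with different numbers lay at -0.472 to -0.073 at 6 h and -0.28 to 0.05 at 24 h. The main fit did not use this pairing, and the experiment block did.

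Members and gene lists were chosen with earlier results of these data known. Per-array values are given by rule for the 12 largest rises and 12 largest falls at 24 h, up to 6 each way at 6 h, 4 each way for the difference between times, the 4 brightest, and members below log2 4 throughout 1 group. MIR155HG and VMP1 were added after their values were seen. Symbols came from the platform's annotation and places from RefSeq GRCh38.p14. Alternatives were the experiment block, other filters and scalings, trend and robust moderation, each time alone, and each array left out.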

Additional observations from a re-analysis of the deposited data

Results flagged for a closer look

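The response to dexamethasone differed between 24 h and 6 h, by the test of the difference itself, in 64 of the 174 probe sets. Among the largest were differences of 2.15 on the log2 scale for MIR3916, of 1.65 for MIR6756 with MCAM and of 1.61 for MIR6845 with NRBP2, all higher at 24 h. For MIR22 with MIR22HG the fit gave 2.61, which is no size, because only its 24 h dexamethasone arrays reached log2 4 and it passed the filter through them alone. The largest lower responses at 24 h were those of the MIR17 cluster with MIR17HG (-1.93), of MIR7112 with BOP1 on both probe sets (-1.78 and -1.67) and of MIR664B with DKC1 (-1.69). The 6 h arrays of each treatment lay in a batch of their own, and the part of the batch in these differences was not tested.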

How the results depend on the processing

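At 6 h the count of called probe sets among the 174 was 6. It was 31 with the experiment number as a replicate block nested in time (17.8%, against 13.1% of all) and 20 with the replicate block shared across times (11.5%, against 9.54%), 110 on the spike scale (63.2%, against 66.2%), 18 with scaling to the hybridization controls (10.3%, against 8.97%), and 2 in a fit of the 6 h arrays alone (1.15%, against 2.11%). Without 1 array it lay between 4 and 9. At 24 h the count of 98 stayed within 1.5 times under every alternative, from 76 with scaling to the hybridization controls (43.7%, against 41.6% of all, with 14 higher and 62 lower) to 113 with the replicate block nested in time (64.9%, against 56.5%), and lay between 82 and 102 without 1 array. For the difference between the times the count of 64 became 40 on the spike scale (23%, against 14.2%) and 26 with scaling to the hybridization controls (14.9%, against 8.19%), and lay between 45 and 63 without 1 array. The cause of these shifts was not tested, except that both scalings subtract a constant from each array.

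The probe sets given with values on each array for their calls gave 626 values under the alternatives. Of these, 598 kept their direction and call, 28 lost the call, all at 6 h, and 0 reversed. None of the 24 calls at 24 h was lost under an alternative in which it was tested. MIR22HG, the dim MCAM probe set, the dimmer MXD4 probe set and NRBP2 did not pass the filter at log2 6 and have no value there. For MIR22HG and the dim MCAM probe set a kept call is no support, because both passed the main filter only through the 24 h dexamethasone arrays. Signal over background limits MIR22HG, the dim MCAM probe set, MIR23AHG and a USP15 probe set, which were below log2 4 on all 3 arrays of at least 1 group or close to it.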
